A study of Mus musculus with 12 samples.

Results

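The matrix metalloproteinases (MMPs) and their tissue inhibitors (TIMPs) were followed in mouse thoracic aorta. The 10 members were the rows of the deposited count table with the symbols Mmp2, Mmp3, Mmp9, Mmp12, Mmp14, Mmp19, Timp1, Timp2, Timp3 and Timp4, out of 27933 genes. All 10 were among the 14621 genes that passed a filter on low counts and were tested. RNA-seq had been done on bulk aortas of C57BL/6J mice aged 8 months, cleaned of surrounding fat. Exposure began at 5 months of age and lasted 12 weeks. The groups were wild-type (WT) mice exposed to nicotine vapor, WT mice in room air, mice lacking the alpha7 nicotinic acetylcholine receptor (KO) exposed to nicotine vapor, and KO mice in room air. Each group had 3 libraries, and the labels do not say whether each library came from its own mouse, so p-values measure the spread between libraries, which may be partly technical.

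MMPs are zinc-dependent proteases made as inactive proenzymes, and between them they cleave collagens, elastin, proteoglycans and basement membrane. TIMPs bind the active site of MMPs and block it. In the arterial wall the balance of MMPs and TIMPs is studied for its part in elastic fibre breakdown, smooth muscle cell migration and aneurysm. An mRNA level says nothing of how much of a protease is activated or inhibited.

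Total counts per library lay between 10240031 and 12628323, and the members took 0.161 to 0.226% of them. The libraries carry numbers in their titles that nearly separate the genotypes (KO 1 to 5 and 7, WT 6 and 8 to 12). What these numbers stand for is not stated, so anything they stand for cannot be told apart from genotype. The numbers are also grouped by exposure within each genotype, with WT air at 8 to 10 and KO nicotine at 3 to 5. WT nicotine was at 6, 11 and 12 and KO air at 1, 2 and 7. What the numbers stand for may thus be mixed with exposure too. Chrna7, the gene of the alpha7 receptor, had 8, 21 and 25 reads in KO nicotine libraries and 18 to 28 in KO air libraries, against 9 to 26 in WT nicotine and 22 to 37 in WT air libraries. A count over the whole gene does not show which exons the reads came from, so it does not check the genotype labels, and KO and WT stand here for libraries labelled so. Smooth muscle markers, the defining genes of the tissue, were the most abundant marker list, with a summed level of 25214 to 50745 CPM, which are counts scaled by TMM to a common library size. KO nicotine library 3 stood apart in markers of other tissues, with summed levels of 2385 CPM for 7 hepatocyte markers, against at most 446 CPM in the other libraries, and of 208 CPM for 9 skeletal muscle markers, against at most 47.0 CPM. Its 9 mesothelial markers summed to 103 CPM, below KO air library 7 at 129 CPM and above 31.8 CPM, the highest of the rest.

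In level per length the inhibitors Timp2 and Timp3 stood far above every MMP, while Timp1 and Timp4 did not. Per kilobase of exon, which allows levels of different genes to be compared, Timp2 averaged 202 ± 24.9 CPM per kb and Timp3 199.6 ± 25.6 CPM per kb (SD over all 12 libraries). Timp2 encodes an inhibitor that also serves as an adaptor in the activation of pro-MMP2, and Timp3 encodes the inhibitor that binds to extracellular matrix and also blocks several ADAM and ADAMTS proteases. The levels of these genes could not be ranked, since Timp2 was the higher in 6 of 12 libraries. Together they made up 79.3 to 87.4% of the summed CPM of the 10 members.

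The protease with the highest level per length was Mmp3, stromelysin 1, which cleaves a wide range of matrix proteins and activates other pro-MMPs, at 52.7 ± 10.6 CPM per kb. Mmp2, gelatinase A, followed at 38.4 ± 8.36 CPM per kb and was below Mmp3 in 11 of 12 libraries, although their ranges overlapped. Mmp14, the membrane-anchored MT1-MMP that activates pro-MMP2 at the cell surface, stood at 13.3 ± 2.89 CPM per kb. Lower in the order were Timp1, the secreted inhibitor known for its induction by cytokines, at 6.84 ± 2.30, Mmp19, a secreted protease that cleaves basement membrane proteins, at 5.28 ± 1.87, and Timp4, an inhibitor known from heart and fat, at 3.30 ± 1.43 CPM per kb. Mmp9, gelatinase B, a product of neutrophils and macrophages among other cells, averaged 2.04 ± 1.16 CPM per kb, and Mmp12, macrophage elastase, 0.215 ± 0.142 CPM per kb. The ranges over the 12 libraries did not overlap between Timp3 and Mmp3, between Mmp2 and Mmp14 or between Mmp9 and Mmp12. Each of the other neighbours in the order overlapped. Parts of this order rest on the exon lengths, which are approximate. In CPM the mean of Mmp2 was above that of Mmp3, and their exon lengths were 3078 and 1801 bases. Timp1, with 888 bases, averaged 6.08 CPM, below Mmp9 at 6.49, Mmp19 at 18.2 and Timp4 at 19.5 CPM.

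**Figure D1:**
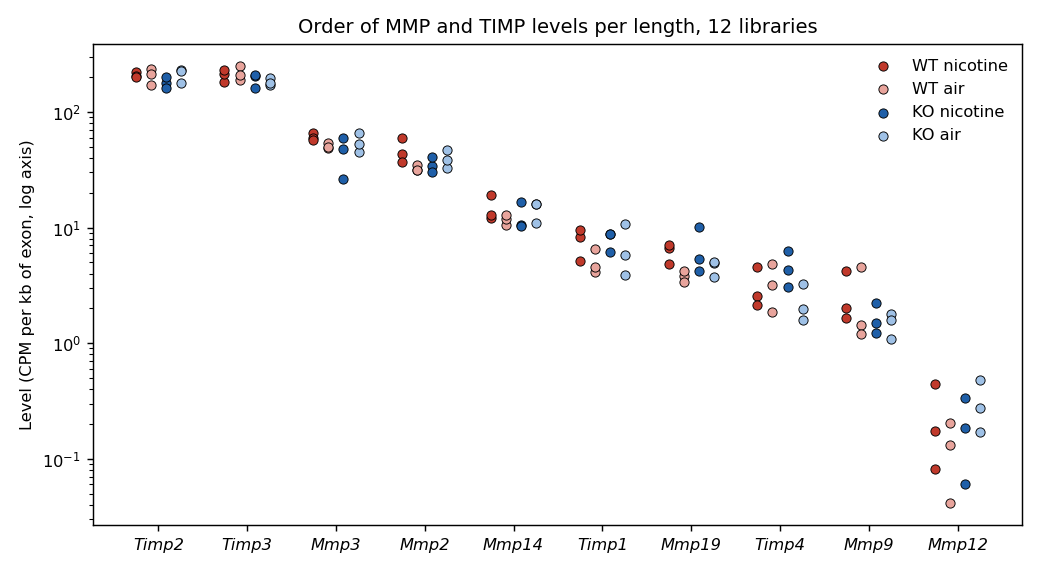
Level of each MMP and TIMP in CPM per kilobase of exon on a log axis, one point per library, with WT nicotine, WT air, KO nicotine and KO air libraries side by side for each gene. Timp2 and Timp3 lie together at the top, from 161 to 251 CPM per kb, and Mmp12 lies apart at the bottom.

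The spread over libraries grew down the order of level per length. It did not follow the level in CPM throughout, since Timp1, at 6.08 CPM, varied less than Timp4, at 19.5 CPM. The coefficient of variation over all 12 libraries was 12.3% for Timp2 and 12.8% for Timp3, below the median of 20.3% over all tested genes. Mmp3, Mmp2 and Mmp14 varied by 20.2, 21.8 and 21.8%, close to that median. Timp1 varied by 33.6%, Mmp19 by 35.4%, Timp4 by 43.4%, Mmp9 by 56.8% and Mmp12 by 66.1%. Mmp12 rested on 2 to 23 reads per library.

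A promoter window, running from 250 bases before to 50 bases after the annotated start, was held by the RefSeq table (build GRCm38.p6) for 7 of the 10 members. Mmp2, Mmp9 and Mmp19 had none. The windows shown are those of Mmp14, Timp2 and Timp4, which enter the pairs of members plotted against each other, and Mmp3, whose WT nicotine and WT air libraries did not overlap. Capitals mark the motifs searched on both strands, which were the AP-1 site TGAGTCA, its variant TGAGTAA, the TATA box TATAAA and the GC box GGGCGG.
Mmp14, chr14:54431348-54431647, plus strand: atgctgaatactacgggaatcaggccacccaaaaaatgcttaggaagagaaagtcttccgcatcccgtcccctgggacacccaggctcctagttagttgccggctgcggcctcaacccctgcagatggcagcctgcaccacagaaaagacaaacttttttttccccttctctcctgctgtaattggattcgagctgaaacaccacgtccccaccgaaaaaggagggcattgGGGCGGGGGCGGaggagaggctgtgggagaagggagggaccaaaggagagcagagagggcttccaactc
Timp2, chr11:118355362-118355661, minus strand: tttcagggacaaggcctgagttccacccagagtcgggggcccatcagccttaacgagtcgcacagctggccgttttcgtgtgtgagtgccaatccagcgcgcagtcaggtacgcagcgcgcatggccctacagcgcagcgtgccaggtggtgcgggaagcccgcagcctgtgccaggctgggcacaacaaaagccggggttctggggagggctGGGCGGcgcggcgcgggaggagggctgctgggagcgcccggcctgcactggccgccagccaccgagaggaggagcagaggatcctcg
Timp4, chr6:115252156-115252455, minus strand: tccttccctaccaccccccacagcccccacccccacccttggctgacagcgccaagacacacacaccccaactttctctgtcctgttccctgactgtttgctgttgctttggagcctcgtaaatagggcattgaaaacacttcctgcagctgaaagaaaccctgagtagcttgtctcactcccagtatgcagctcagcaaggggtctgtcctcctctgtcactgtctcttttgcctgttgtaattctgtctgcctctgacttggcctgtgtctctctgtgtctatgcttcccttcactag
Mmp3, chr9:7445572-7445871, plus strand: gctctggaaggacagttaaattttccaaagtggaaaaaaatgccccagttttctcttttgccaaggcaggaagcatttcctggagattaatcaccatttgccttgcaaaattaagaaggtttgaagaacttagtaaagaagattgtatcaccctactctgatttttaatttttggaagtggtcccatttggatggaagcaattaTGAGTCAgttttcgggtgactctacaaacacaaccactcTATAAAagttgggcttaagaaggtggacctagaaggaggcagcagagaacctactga
The Mmp3 window held 1 TGAGTCA and 1 TATAAA, letters present in 5.20% and 13.6% of 32851 mouse promoter windows of the same length. Mmp14 held 2 copies of GGGCGG and Timp2 held 1, a motif found in 35.7% of all windows. None of the 4 motifs' letters was in the Timp4 window. The GC content was 68.7% in Timp2, 56.0% in Mmp14, 53.3% in Timp4 and 40% in Mmp3, against a median of 52.7% over all windows. A match of letters is a description and not a shown binding site.

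The first comparison asks what 12 weeks of nicotine vapor did to these genes in WT aortas. All 6 MMPs had a higher fitted level in nicotine than in air, with a median log2 fold change of 0.42, whereas the 4 TIMPs had 2 values above and 2 below 0 and a median of -0.02. None of the 10 members passed the test at an adjusted p of 0.05 (edgeR quasi-likelihood test, Benjamini-Hochberg over 14621 genes), where 0.0205% of all genes passed. At an unadjusted p of 0.05, 2 members passed, Mmp2 and Mmp19, against 9.84% of all genes. In 3 members, Mmp2, Mmp3 and Mmp19, every WT nicotine library lay above every WT air library, against 7.13% of all genes, and in 0 of 10 members was the order reversed, against 6.05% of all genes. Over all tested genes the median log2 fold change was -0.00.

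Mmp2 had 182, 135 and 113 CPM in the WT nicotine libraries numbered 6, 11 and 12, against 97.2, 107 and 96.1 CPM in WT air libraries 8, 9 and 10. The WT nicotine libraries lay above all WT air libraries and were themselves spread widely. The group means were 143 ± 35.4 and 100.01 ± 5.81 CPM (SD, n = 3 each). The log2 fold change was 0.52 ± 0.18 (SE, 95% interval 0.13 to 0.90, adjusted p = 0.402, edgeR), which is a 1.43-fold difference. Without WT nicotine library 6 the log2 fold change was 0.32.

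In KO aortas Mmp2 did not show that order. It had 106, 93.8 and 127 CPM in KO nicotine libraries 3, 4 and 5, against 145, 101 and 117 CPM in KO air libraries 1, 2 and 7. These groups overlapped, and the log2 fold change was -0.15 ± 0.18 (edgeR adjusted p = 0.896, 95% interval -0.54 to 0.23). The difference between the nicotine effects, KO minus WT, was -0.67 ± 0.25 on the log2 scale, with an unadjusted p of 0.0194 and an adjusted p of 0.999 in the edgeR fit, so Mmp2 was not shown to respond differently by genotype.

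Mmp19 had 23.2, 16.8 and 24.3 CPM in WT nicotine libraries, against 13.2, 11.8 and 14.6 CPM in WT air libraries. The groups did not overlap. Its log2 fold change was 0.70 ± 0.28 (95% interval 0.10 to 1.29, adjusted p = 0.437, edgeR), a 1.62-fold difference between 21.4 ± 4.08 and 13.2 ± 1.41 CPM. In KO mice it had 34.6, 18.4 and 14.6 CPM in nicotine libraries 3, 4 and 5, against 12.8, 17.1 and 17.3 CPM in air libraries. The KO groups overlapped, with nicotine library 3 standing above the rest, and without that library the KO log2 fold change was 0.07 where it was 0.52 ± 0.27 with it.

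Mmp19 was the member with the lowest p for nicotine averaged over both genotypes. That average was a log2 fold change of 0.61 ± 0.19, or 1.52-fold, with an unadjusted p of 0.00801 and an adjusted p of 0.337 (edgeR). Without KO nicotine library 3 it was 0.39. In that comparison 0 of 10 members and 0% of all genes passed at the adjusted threshold. At an unadjusted p of 0.05 it was 1 member, Mmp19, against 10.9% of all genes.

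Mmp3 had 118, 108 and 102 CPM in WT nicotine libraries, against 87.7, 97.0 and 89.5 CPM in WT air libraries. The groups were separate but close, and the log2 fold change of 0.26 ± 0.23 was about as large as its standard error (edgeR adjusted p = 0.745). In KO mice the nicotine libraries had 108, 47.7 and 86.4 CPM, against 119, 81.9 and 95.2 CPM in the air libraries. Nicotine library 4 was the lowest of all 12. The KO log2 fold change was -0.29 ± 0.23 with that library and -0.02 without it.

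Mmp14 had 79.4, 50.1 and 53.2 CPM in WT nicotine libraries, against 43.9, 49.3 and 53.6 CPM in WT air libraries. Library 6, which was the highest for Mmp2, was also the highest here, and the other WT libraries overlapped. The KO nicotine libraries had 44.2, 42.9 and 69.2 CPM, against 66.9, 46.0 and 66.8 CPM in KO air libraries. The log2 fold change was 0.31 ± 0.22 in WT and -0.20 ± 0.22 in KO mice (edgeR adjusted p = 0.677 and 0.894), and without WT nicotine library 6 the WT value was 0.10.

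Mmp9 had 13.5, 6.37 and 5.23 CPM in WT nicotine libraries, against 4.53, 14.6 and 3.79 CPM in WT air libraries. One library stood high in each group, so the log2 fold change of 0.12 ± 0.50 became -0.37 without nicotine library 6 and 1.0002 without air library 9. No KO library reached those levels, with 4.76, 7.06 and 3.88 CPM in nicotine and 5.70, 3.42 and 5.04 CPM in air. The KO log2 fold change was 0.15 ± 0.52.

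The summed level of 10 neutrophil markers was 65.6 CPM in WT nicotine library 6 and 13.8 CPM in WT air library 9, the high libraries for Mmp9. These were the highest and the third highest sums of the 12 libraries. The second was 25.8 CPM in WT nicotine library 12, where Mmp9 was at 5.23 CPM, and the sums of the other libraries were 4.60 to 10.98 CPM. In WT air library 9 there were 4 of the 10 markers at 0. Their part in the Mmp9 values was not tested.

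Mmp12 was near the limit of what the depth could show. It had 7, 21 and 4 reads in WT nicotine libraries, against 6, 2 and 10 reads in WT air libraries. The KO nicotine libraries had 8, 14 and 3 reads, against 13, 8 and 23 in KO air libraries. All groups overlapped, and 95% intervals of the log2 fold change ran from -0.84 to 2.60 in WT and from -2.33 to 0.95 in KO mice.

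**Figure D2:**
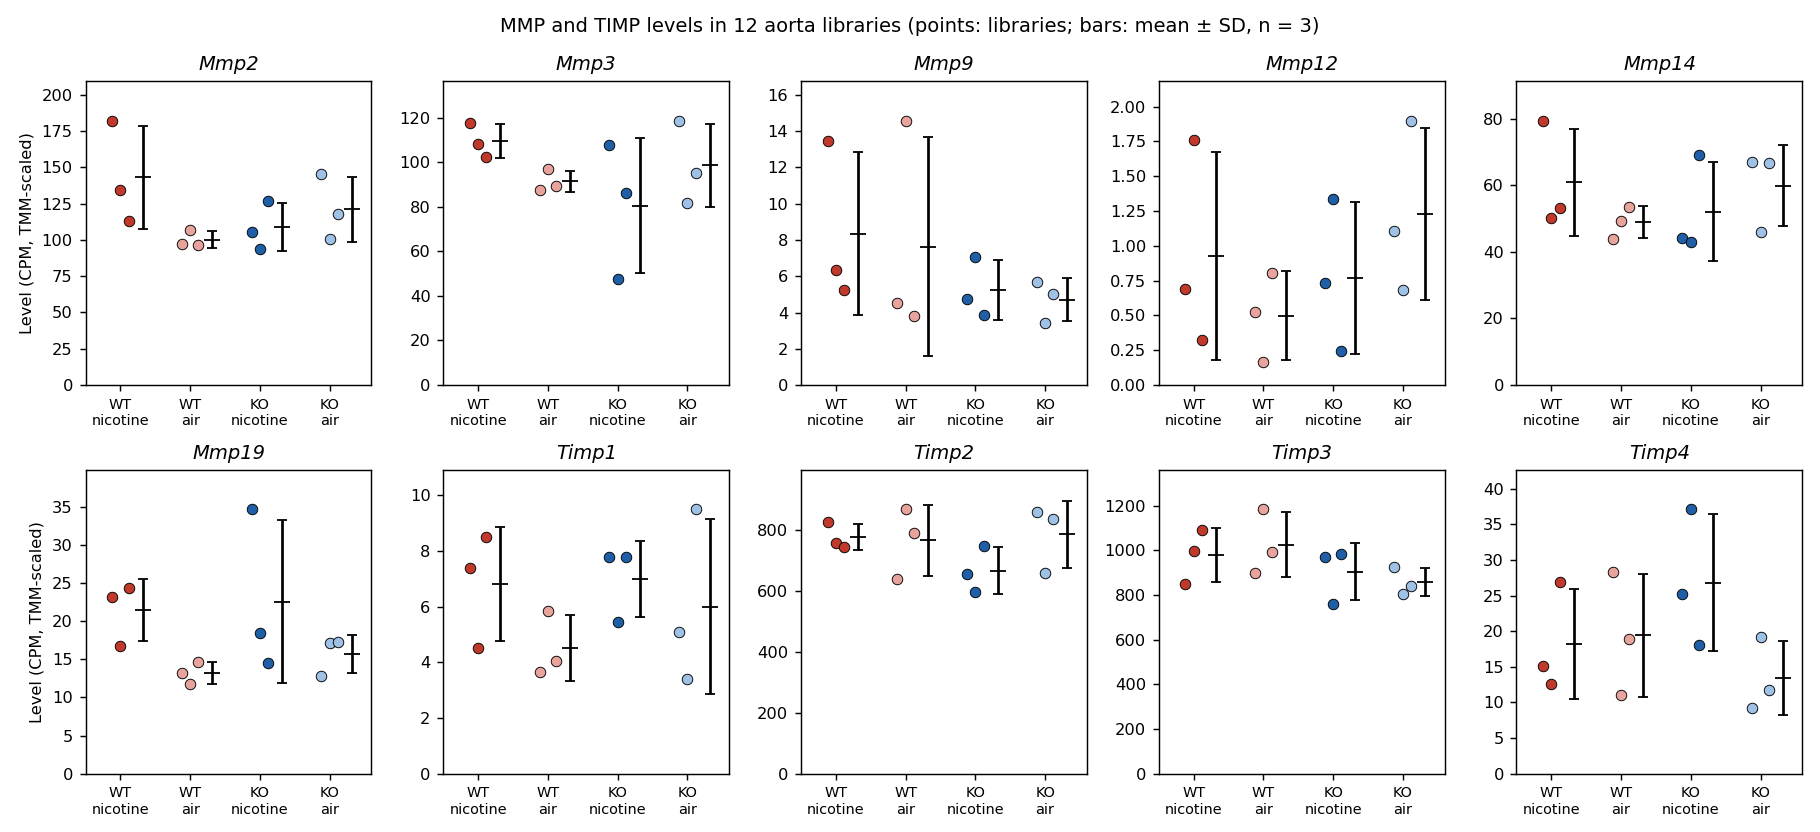
Level in TMM-scaled CPM of each of the 10 members, one panel per gene with its own linear axis from 0, in WT nicotine, WT air, KO nicotine and KO air aortas. Points are libraries and bars are the mean ± SD of 3. The WT nicotine points lie above all WT air points in the panels of Mmp2, Mmp3 and Mmp19, and nicotine library 4 of the KO group is the highest point for Timp4.

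Among the inhibitors Timp2 and Timp3 had the narrowest intervals for nicotine in both genotypes. Timp2 had 827, 760.0 and 747 CPM in WT nicotine libraries, against 641, 869 and 791 CPM in WT air libraries. Its WT log2 fold change was 0.02 with a 95% interval from -0.31 to 0.35. The KO nicotine libraries had 657, 598 and 749.6 CPM, against 861, 660.4 and 839 CPM in KO air libraries. These groups overlapped as well, and the KO log2 fold change was -0.24 ± 0.15 (95% interval -0.57 to 0.10, edgeR adjusted p = 0.878).

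Timp3 had 851, 999 and 1090.1 CPM in WT nicotine libraries, against 900.4, 1184 and 992 CPM in WT air libraries. The KO nicotine libraries had 971, 761 and 985 CPM, against 927, 807 and 842 CPM in KO air libraries. Both pairs of groups overlapped. The log2 fold changes were -0.07 ± 0.16 in WT and 0.08 ± 0.16 in KO mice, and the intervals of both stayed between -0.40 and 0.41.

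Timp1 had 7.38, 4.53 and 8.49 CPM in WT nicotine libraries, against 3.66, 5.85 and 4.03 CPM in WT air libraries. In KO mice it had 7.79, 5.44 and 7.77 CPM in nicotine libraries, against 5.10, 3.42 and 9.49 CPM in air libraries. The groups overlapped in both genotypes. The log2 fold change was 0.59 ± 0.37 in WT mice (95% interval -0.20 to 1.38, adjusted p = 0.628) and 0.22 ± 0.36 in KO mice (edgeR).

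Timp4 had the largest KO value of the members. The KO nicotine libraries 3, 4 and 5 had 25.3, 37.1 and 18.0 CPM, against 9.27, 19.2 and 11.7 CPM in KO air libraries 1, 2 and 7. Nicotine libraries 3 and 4 lay above all KO air libraries, and nicotine library 5 lay below air library 2. The group means were 26.8 ± 9.61 and 13.4 ± 5.19 CPM, a 1.997-fold difference. The log2 fold change was 0.998 ± 0.42 (95% interval 0.07 to 1.93), with an unadjusted p of 0.0381 and an adjusted p of 0.878 (edgeR).

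In WT mice Timp4 had 15.1, 12.6 and 26.9 CPM in nicotine libraries, against 28.3, 11.04 and 18.9 CPM in air libraries. The groups overlapped, and the log2 fold change was -0.09 ± 0.42. The KO effect minus the WT effect was 1.09 ± 0.59 (unadjusted p = 0.0949, edgeR adjusted p = 0.999), and it was 0.68 without WT air library 8.

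In KO mice the nicotine comparison as a whole had 0 of 10 members past the adjusted threshold, where 0% of all genes passed. At an unadjusted p of 0.05 there was 1 member, Timp4, against 4.58% of all genes. In 0 of 10 members did the KO nicotine and KO air libraries fail to overlap, against 10.7% of all genes in either direction. The fitted values were 5 above and 5 below 0, with a median of -0.04. The KO median was -0.18 for the 6 MMPs, of which 2 were above 0, and 0.15 for the 4 TIMPs, of which 3 were above 0.

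**Figure D3:**
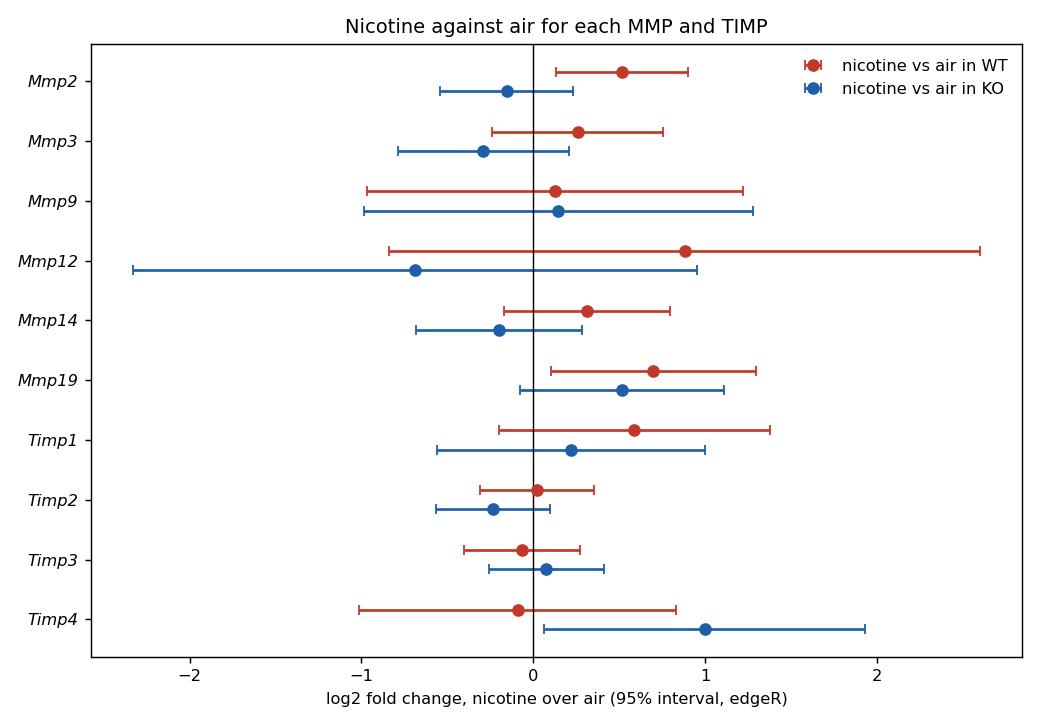
Log2 fold change of nicotine over air with its 95% interval from the edgeR fit for each of the 10 members, WT above KO in each row, and a line at 0. The WT intervals of Mmp2 and Mmp19 and the KO interval of Timp4 lie to the right of 0 before adjustment for the 14621 genes tested.

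The difference of the nicotine effects between genotypes was tested for every member. None of the 10 passed the adjusted threshold and 0% of all genes did, while 1 member, Mmp2, had an unadjusted p under 0.05 against 4.43% of all genes. The interaction was below 0 for 5 of the 6 MMPs, with a median of -0.53, and for 2 of the 4 TIMPs. For Mmp3 it was -0.55 ± 0.32 with a 95% interval from -1.26 to 0.16, and for Mmp14 -0.51 ± 0.32 with an interval from -1.20 to 0.17. Without KO nicotine library 4 the Mmp3 value was -0.28, and the Mmp14 value was -0.29 without WT nicotine library 6 and -0.78 without KO nicotine library 5. For Mmp12, on few reads, the value was -1.57 ± 1.10.

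The genotypes were then compared within each exposure. In nicotine, KO libraries had lower fitted values than WT libraries for 5 of the 6 MMPs, with a median log2 fold change of -0.34. Mmp2 averaged 109 ± 16.7 CPM in KO nicotine and 143 ± 35.4 CPM in WT nicotine libraries, and its log2 fold change of -0.40 ± 0.18 had an unadjusted p of 0.0447 and an adjusted p of 0.576 (edgeR). Without WT nicotine library 6 it was -0.20. Mmp3 averaged 80.6 ± 30.4 CPM in KO nicotine and 109 ± 7.60 CPM in WT nicotine libraries, a log2 fold change of -0.44 ± 0.23 (edgeR adjusted p = 0.659). The Mmp3 value was -0.17 without KO nicotine library 4 and -0.70 without KO nicotine library 3. None of the 10 members passed the adjusted threshold, where 0.00684% of all genes did. Mmp2 was the 1 member under an unadjusted p of 0.05, against 8.34% of all genes, and in 0 of 10 members were the groups separate, against 11.4% of all genes.

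In room air 5 of the 6 MMPs had higher fitted values in KO than in WT libraries, with a median log2 fold change of 0.26. These were not all the MMPs that were lower in KO nicotine libraries. Mmp9 was lower in KO in both exposures, at -0.69 in air and -0.67 in nicotine. Mmp19 was higher in KO in both, at 0.25 and 0.07. Mmp2 averaged 121 ± 22.4 CPM in KO air and 100.01 ± 5.81 CPM in WT air libraries, a log2 fold change of 0.28 ± 0.18, or 0.13 without KO air library 1. Mmp12 had the largest value, 1.29 ± 0.79, with an interval from -0.41 to 2.98, and was 0.83 without KO air library 7. Adjusted p-values were 0.995 or above for all 10 members (edgeR), and no member passed, where 0% of all genes did. At an unadjusted p of 0.05 it was 0 of 10 members against 4.36% of all genes. In 0 of 10 members were the groups separate, against 11.8% of all genes.

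Averaged over both exposures, KO over WT gave log2 fold changes from -0.68 to 0.50. The lowest was that of Mmp9, -0.68 ± 0.36 (unadjusted p = 0.0839, adjusted p = 0.664, edgeR), where WT nicotine library 6 and WT air library 9 were the high ones. Without WT nicotine library 6 the Mmp9 value was -0.42, and without WT air library 9 it was -0.25. The highest was that of Mmp12, 0.50 ± 0.55. No member passed at either threshold, where 0% of all genes passed the adjusted and 8.41% the unadjusted one. The comparisons above share libraries with each other, so their values are not independent of one another.

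The authors' deposited table for WT mice, in which the sign ran the same way as here, gave the lowest p among the members to Mmp19, with a log2 fold change of 0.70 ± 0.24 and an adjusted p of 0.180. It gave Mmp2 a log2 fold change of 0.52 ± 0.20 and an adjusted p of 0.344. The authors' deposited table for KO mice gave Timp4 a log2 fold change of 0.997 ± 0.34 and an adjusted p of 0.709. No member had an adjusted p under 0.05 in either of the authors' deposited tables.

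Markers of cell types moved with some of these values. In a bulk aorta fewer cells of a type and less RNA per cell cannot be told apart. The summed level of 10 macrophage markers was 369.8 to 493 CPM in WT nicotine libraries and 217 to 238 CPM in WT air libraries, without overlap, and all 10 markers had fitted values above 0 with a median log2 fold change of 0.84. None of these 10 markers passed the adjusted threshold, where 0.0205% of all genes did. Taken gene by gene, 7.13% of all genes lay higher in WT nicotine without overlap. In KO mice the sum was 275 to 440.3 CPM in nicotine and 216 to 344 CPM in air libraries, and the highest, KO nicotine library 3, was also the library with the most Mmp19 and the one with the high hepatocyte and skeletal muscle sums. The highest macrophage sum of all, 493 CPM, was in WT nicotine library 6. No macrophage marker was at 0 in any library. The part of macrophage RNA in the Mmp19 values was not tested.

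Smooth muscle markers, 9 genes, had lower fitted values in nicotine than in air for 8 of 9 in both genotypes, with a median log2 fold change of -0.47 in WT and -0.35 in KO mice. None passed the adjusted threshold, where 0.0205% of all genes passed in WT and 0% in KO mice. At an unadjusted p under 0.05 there were 5 in WT and 2 in KO mice, against 9.84% and 4.58% of all genes (edgeR). Their summed level was 30787 to 35640 CPM in WT nicotine libraries and 33904 to 50745 CPM in WT air libraries, with 25214 to 41152 CPM in KO nicotine and 35034 to 42132 CPM in KO air libraries, so the groups overlapped in both genotypes. None was at 0 in any library, and their part in the MMP and TIMP values, which are shares of each library's counts, was not tested.

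Fibroblast markers, 9 genes, summed to 2837 to 3323 CPM in WT nicotine libraries and 2118 to 2643 CPM in WT air libraries, again without overlap, with all 9 above 0 and a median of 0.28. None of these 9 markers passed the adjusted threshold, where 0.0205% of all genes did. WT nicotine library 6 had the highest fibroblast sum, the highest Mmp2 and the highest Mmp14. In KO mice the fibroblast sums were 2071 to 2666 CPM in nicotine and 2216 to 2825 CPM in air libraries, and the lowest of all 12 was KO nicotine library 4, which was also the lowest for Mmp2, Mmp3 and Mmp14. No fibroblast marker was at 0 in any library. The part of fibroblast RNA in the Mmp2, Mmp3 and Mmp14 values was not tested.

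Adipocyte markers, 8 genes, summed to 6237 CPM in KO nicotine library 4, the highest of all 12 libraries and the one with the most Timp4. All 8 had fitted values above 0 for nicotine in both genotypes, with a median log2 fold change of 0.72 in WT and 0.55 in KO mice, and none was at 0 in any library. None of these 8 markers passed the adjusted threshold, where 0.0205% of all genes passed in WT and 0% in KO mice. WT air libraries ranged from 978 CPM in library 9, which had the least Timp4 of its group, to 3942 CPM in library 8, which had the most. In both KO groups Timp4 also followed the order of the adipocyte sums. WT nicotine libraries did not follow it. There library 12 had the lowest sum, 3381 CPM, and the most Timp4, 26.9 CPM. Library 6 had the highest sum, 4227 CPM, and 15.1 CPM of Timp4. The mitochondrial share of counts was highest in KO nicotine library 4, at 7.25%, and WT air library 8, at 7.52%, against 3.004% in WT air library 9. With a per-library adipocyte score as a covariate, the Timp4 log2 fold change for nicotine was 0.70 in KO mice, where it was 0.998 without the score, and -0.68 in WT mice, where it was -0.09. With the same score Mmp2 had 0.69 and Mmp19 0.60 in WT mice, and no member passed the adjusted threshold.

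Timp4 lies inside the Syn2 gene on the opposite strand, as Timp1 does in Syn1 and Timp3 in Syn3. In the GRCm38 annotation the exons of Timp4 and Syn2 share 90 bases, while those of Timp1 and Timp3 share 0 bases with their hosts. Whether the counting used strand is not given in the sources used here, so reads in the shared bases of Timp4 and Syn2 cannot be told apart. Syn2 had 379 reads in all 12 libraries together, Syn1 243 and Syn3 650. Syn2 had 1.19, 4.77 and 2.19 CPM in KO nicotine libraries, against 1.70, 5.13 and 0.991 CPM in KO air libraries, all of them below Timp4 in the same library.

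Members were then compared with each other over the 12 libraries, on log2 CPM with a prior count of 2. Of 45 pairs, 27 had a correlation above 0 and 2 passed an adjusted p of 0.05 (Pearson, permutation test with 100000 resamples, Benjamini-Hochberg over 45 pairs). Timp2 and Timp4 ran opposite to each other, with r = -0.87 (permutation p = 0.00027, adjusted p = 0.0121) and Spearman's rho = -0.94 (adjusted permutation p = 0.00135). Within groups, after removal of the group means, r was -0.87, and without the 2 libraries farthest from the median of the first gene it was -0.77.

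Mmp2 and Mmp14, the protease and the membrane enzyme that activates it, ran together with r = 0.82 (permutation p = 0.001, adjusted p = 0.0225). Spearman's rho was 0.78 and missed the threshold after adjustment (adjusted permutation p = 0.0927), and without the 2 farthest libraries r was 0.62. Within groups r was 0.82. Mmp14 and Timp2, which bind each other in the activation of pro-MMP2, had r = 0.72 and rho = 0.69 (adjusted permutation p = 0.107 and 0.150), with r = 0.78 within groups. All pairs share the same libraries and their cell composition, so a correlation says nothing of control of one gene by another.

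**Figure D4:**
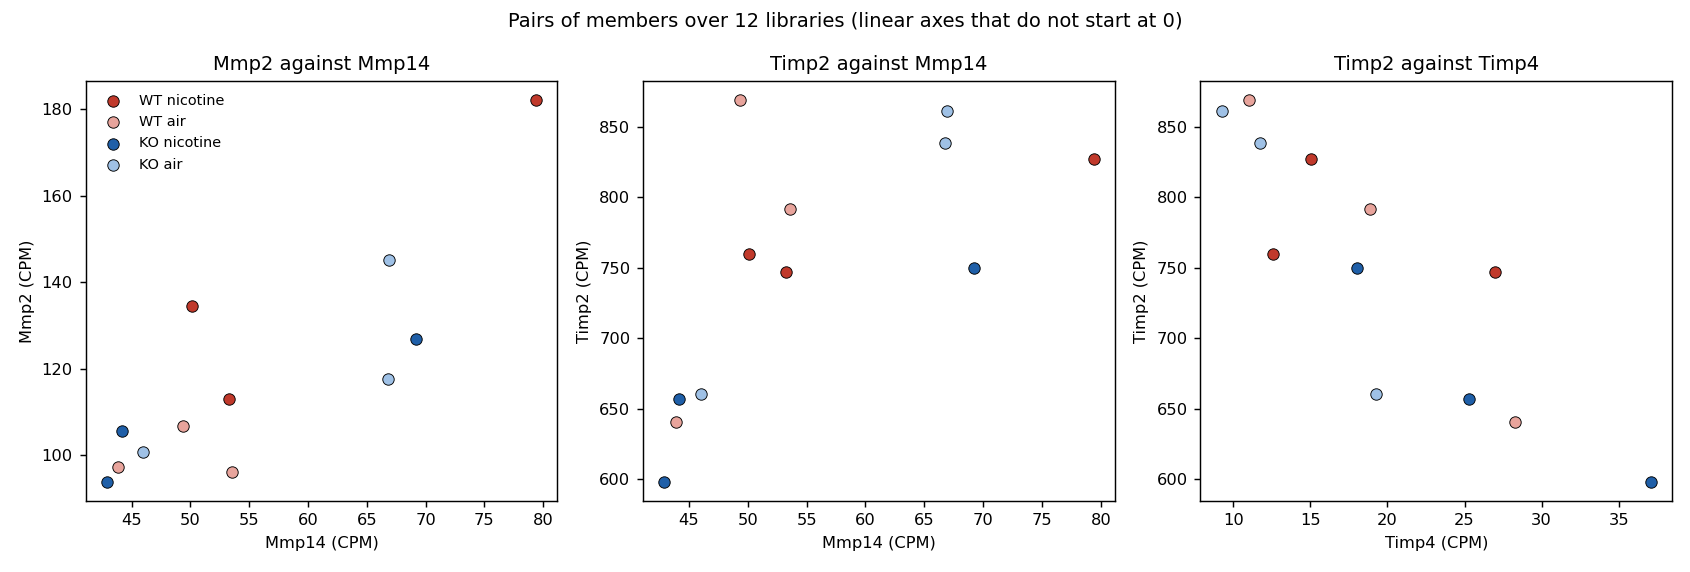
Levels in CPM of Mmp2 against Mmp14, Timp2 against Mmp14 and Timp2 against Timp4 in 12 libraries, coloured by group, on linear axes that do not start at 0. The first panels slope upward and the panel of Timp2 against Timp4 slopes downward, with KO nicotine library 4 at 598 CPM of Timp2 and 37.1 CPM of Timp4.

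The genes most like each member over the 12 libraries were named by Pearson's r of log2 CPM, as a description without a test, among tested genes with a mean of at least 5 CPM. Mmp2 was most like Olfml3 and Thy1, both at 0.92. Mmp3 was most like Pi16, at 0.91, which is also a fibroblast marker. Mmp14 was most like Col1a1, a chain of collagen I, at 0.91, and Plat, tissue plasminogen activator, at 0.87. Mmp19 was most like Iqgap2, at 0.92, and Itgam, an integrin chain of myeloid cells, at 0.90.

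Among the inhibitors, Timp2 was most like Rtf1 and Ecm1, at 0.96 and 0.95, and Timp3 most like Hsf2 and Tpm4, both at 0.90. Timp4 was most like Dnlz and Prosc, both at 0.95, and among the cell type markers most like Ucp1 of brown fat, at 0.72. The highest values for Timp1 were lower, 0.76 for Gsr and for Epb41l5. Mmp9 was most like Dnm2, at 0.91, and Mmp12 most like Ackr4 and Gimap8, both at 0.87, on the few reads it had. Among the cell type markers Mmp9 was most like Dpep1 of fibroblasts, at 0.71, and Mmp12 most like Mbp of Schwann cells, at 0.66. The marker most like Timp1 was Upk3b of mesothelium, at 0.67, and that most like Timp3 was Cnn1 of smooth muscle, at 0.68. Fibroblast markers were the most alike for Mmp2 (Clec3b, 0.86), Mmp14 (Lum, 0.71) and Timp2 (Pi16, 0.77).

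The wider pathway was read from lists of related genes, and none of their genes passed the adjusted threshold in any of the 7 comparisons. Of 17 other MMPs in the table, 8 had enough reads to be tested, and the untested ones included Mmp7 with 1 read and Mmp10 with 5 reads in all 12 libraries. For nicotine averaged over genotypes 1 of the 8 was above and 7 below 0, with a median of -0.12, and for KO over WT it was also 1 and 7, with a median of -0.17. Mmp17, a membrane-anchored MMP, had the lowest p for nicotine, with a log2 fold change of -0.39 ± 0.12 (edgeR adjusted p = 0.336). Mmp23 had the lowest p for genotype, with -0.24 ± 0.11 for KO over WT (edgeR adjusted p = 0.579).

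Of 20 genes for activators, inhibitors, docking and clearance of MMPs, 19 were tested. In WT mice 12 of them had values above and 7 below 0 for nicotine, with a median of 0.04, and in KO mice 6 and 13, with a median of -0.09. Thbs1, thrombospondin 1, a matrix protein that binds MMP2 and aids its clearance, had a log2 fold change of 0.53 ± 0.21 for nicotine averaged over genotypes (edgeR adjusted p = 0.399).

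The 19 matrix substrates of MMPs, all tested, split into 10 above and 9 below 0 for nicotine in WT mice, with a median of 0.01, and into 6 and 13 in KO mice, with a median of -0.10. For KO over WT, averaged over exposures, 2 were above and 17 below 0, with a median of -0.15. Nid1, a basement membrane linker, had 0.35 ± 0.11 for nicotine averaged over genotypes (edgeR adjusted p = 0.336).

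Of the 14 ADAM and ADAMTS proteases, the metalloproteinase families that Timp3 also inhibits in part, 10 were above and 4 below 0 for nicotine in WT mice, with a median of 0.22, and 7 were above and 7 below 0 in KO mice. Adamts1, which cleaves versican and aggrecan, had a log2 fold change of 0.71 ± 0.15 for nicotine averaged over genotypes (edgeR adjusted p = 0.244). Adam19 had -0.59 ± 0.12 (edgeR adjusted p = 0.244).

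Of 22 known inducers of MMP and TIMP transcription, 20 were tested. In WT mice 18 were above and 2 below 0 for nicotine, with a median of 0.32, and in KO mice 10 and 10, with a median of -0.02. In nicotine, KO over WT had 1 above and 19 below 0, with a median of -0.46. Fosl2, a subunit of AP-1, had the lowest p, with 354, 394 and 350.3 CPM in WT nicotine libraries against 141, 143 and 184 CPM in WT air libraries. Its WT log2 fold change was 1.23 ± 0.21 (edgeR adjusted p = 0.0767), and KO over WT in nicotine was -1.35 ± 0.21 (edgeR adjusted p = 0.0537).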

How the data were processed

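RNA-seq was done on thoracic aortas with a SMART-Seq v4 library kit, per the labels' protocols. The deposited table holds raw counts per gene symbol, made by the authors with HTSeq on build mm9, per the submitters' processing notes, with aligner and annotation not given in the sources used here. Log2 fold changes and p-values of the authors' deposited comparison tables were only copied. From the counts, CPM were computed with TMM scaling, and a quasi-likelihood model with 4 group means over 12 libraries (8 residual degrees of freedom) was fitted in edgeR 4.0.16 under R 4.3.3, after its default filter on low counts, with robust estimation. P-values were adjusted by Benjamini-Hochberg over 14621 genes, with calls at 0.05. SE is the absolute log2 fold change over the root of F. The fit was tested on simulated counts. Alternatives used DESeq2 1.42.0, limma 3.58.1 (voom), other scaling and filters, an adipocyte covariate and each library left out. Correlations and figures used scipy 1.17.1 and matplotlib 3.10.9. Levels per kb used the exon union of GENCODE M21 (GRCm38), which is not the files' build, so lengths are approximate. In each pathway list the genes named are among the 4 with the lowest p for nicotine, or for KO over WT, averaged, and 1 of these is not reported here. Members, lists and named genes were chosen with earlier results of these data known. Total counts were 10240031 to 12628323 per library, and the median SE over all tested genes was 0.22 on the log2 scale for a comparison of 2 groups.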

Additional observations from a re-analysis of the deposited data

How the results depend on the processing

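No member passed an adjusted p of 0.05 in any of the 7 comparisons under any alternative run (edgeR with other scaling, filters, without robust estimation, with an adipocyte score or with only the compared libraries, DESeq2, limma voom, or without each library in turn). Of 1120 member values under alternatives 1042 kept their direction and 78 turned, none with a reported size above 0.69 on the log2 scale, and the causes were not tested. The lowest adjusted p was 0.0828, for Mmp19 with nicotine averaged over genotypes without KO nicotine library 5 (log2 fold change 0.73, edgeR). Mmp12 gave no value with the stricter filter of 10 counts in 6 libraries, nor, when only the compared libraries were fitted, for nicotine in WT and for KO over WT in air or in nicotine, since the low-count filter then removed it. With voom the log2 fold change turned to -0.12 for the Mmp9 interaction, -0.048 for Mmp12 with nicotine averaged and -0.019 for Mmp19 in KO over WT in nicotine. With the adipocyte score it turned to 0.17 for Timp3 in WT nicotine, -0.21 for Mmp9 and -0.0099 for Timp3 in the interaction, 0.17 for Mmp3, -0.50 for Mmp12 and 0.071 for Timp2 with nicotine averaged, -0.026 for Timp1 in KO over WT in nicotine and -0.13 for Timp4 in KO over WT averaged.

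Leaving out each library in turn gave these ranges of log2 fold change where the sign turned. For nicotine in WT they were -0.37 to 1.0002 for Mmp9, -0.066 to 0.12 for Timp2, -0.14 to 0.050 for Timp3 and -0.49 to 0.31 for Timp4. For nicotine in KO they were -0.13 to 0.33 for Mmp9 and -0.060 to 0.72 for Timp1. For the interaction they were -0.85 to 0.53 for Mmp9, -0.62 to 0.043 for Mmp19 and -0.65 to 0.13 for Timp1. For nicotine averaged they were -0.14 to 0.12 for Mmp3, -0.11 to 0.57 for Mmp9, -0.33 to 0.37 for Mmp12, -0.063 to 0.13 for Mmp14 and -0.029 to 0.064 for Timp3. For KO over WT in air they were -0.040 to 0.22 for Mmp3, -1.01 to 0.18 for Mmp9, -0.086 to 0.69 for Timp1 and -0.062 to 0.15 for Timp2. For KO over WT in nicotine they were -0.93 to 0.58 for Mmp12, -0.37 to 0.30 for Mmp19 and -0.19 to 0.24 for Timp1. For KO over WT averaged they were -0.14 to 0.040 for Mmp2, -0.10 to 0.15 for Mmp14, -0.061 to 0.28 for Mmp19, -0.022 to 0.37 for Timp1 and -0.17 to 0.21 for Timp4.

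The count of genes called over the whole table moved between alternatives and reached at most 115, against 14621 genes tested in the main fit. With so few genes called, the absence of calls among the members says little about them. For nicotine in WT it was 3 in edgeR and 115 in DESeq2, 21 without a filter, 7 with DESeq2 size factors or the stricter filter, 0 with the adipocyte score or with only the compared libraries, and 0 to 34 without one library. DESeq2 called 96 genes for nicotine averaged, 9 for the interaction, 13 for KO over WT in air, 87 in nicotine and 115 averaged, where edgeR called 0, 0, 0, 1 and 0. Without a filter edgeR called 6, 1, 0, 7 and 12 in those comparisons. With the adipocyte score it called 9 for KO over WT in nicotine and 6 averaged, with DESeq2 size factors 6 in nicotine, and with only the compared libraries 2 in air. Without one library it called 0 to 38 genes for nicotine averaged, 0 to 1 for the interaction and for KO over WT averaged, and 0 to 4 for KO over WT in nicotine. In KO mice nicotine called 0 genes in every alternative. No paired analysis was possible because no library number is shared between groups. With 3 libraries a group, the intervals for nicotine were widest for Mmp9, Mmp12, Timp1 and Timp4. The intervals are not adjusted for the 14621 genes tested, so they do not give the smallest difference the test could detect. Those of Mmp2 and Mmp19 in WT and of Timp4 in KO mice left out 0, and none of these passed the adjusted threshold. Differences in any of the 10 members may thus have gone undetected at this depth and spread.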

Other observations

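Mmp8, neutrophil collagenase, was tested but is not among the 10 members. It had 6.20, 0.168 and 1.23 CPM in WT nicotine libraries 6, 11 and 12, against 1.74, 1.32 and 0.484 CPM in WT air libraries. KO nicotine libraries had 1.47, 0.381 and 0.0809 CPM, against 0.255, 0.598 and 0.413 CPM in KO air libraries. Its highest value was in WT nicotine library 6, where the summed neutrophil markers were also highest at 65.6 CPM. For KO over WT averaged over exposures its log2 fold change was -1.71 ± 0.77 (edgeR adjusted p = 0.579), and Mmp8 rested on 158 reads in all 12 libraries.

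KO nicotine library 4 stood at an end of the range for several members at once. It had the highest Timp4 of all 12 libraries, at 37.1 CPM, and the lowest Timp2, Timp3, Mmp2, Mmp3 and Mmp14, at 598, 761, 93.8, 47.7 and 42.9 CPM. It also had the highest adipocyte sum, at 6237 CPM, the lowest fibroblast sum, at 2071 CPM, and the smallest share of counts in the members, at 0.161%.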
